A study of Bubalus bubalis with 12 samples.

Results

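CDX2, ELF5, PRDM14, ZAR1 and GDF9 are genes with known roles in the oocyte or the early embryo, and their chromatin was examined here in buffalo spermatozoa. The 5 genes were picked by symbol, with earlier results of these arrays known for the comparison of fertility groups and for the level of each mark. Their differences between fertility groups and their levels are therefore given as a description, without a test. They carried 131 of the 177440 non-control probes of the array, and all 131 passed the filter on dim input signal. As genes they were 5 of the 6805 symbols with at least 2 usable probes, out of 9328 symbols on the array.

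The series profiled sperm of water buffalo (Bubalus bubalis) bulls by ChIP-on-chip, in which immunoprecipitated chromatin and its input are hybridised together to an array of 60-base probes. The subfertile group (SF) consisted of bulls SF1, SF4 and SF5, and the high-fertile group (HF) of bulls HF2, HF3 and HF5, all sampled as cryopreserved semen. Each bull gave 1 array for H3K4me2 (histone H3 dimethylated at lysine 4, a mark of active and poised promoters) and 1 for H3K27me3 (trimethylated at lysine 27, the mark placed by Polycomb repressive complex), 12 arrays in all. The chromatin of every bull was cross-linked, cut with micrococcal nuclease and amplified by linker-mediated PCR, with ChIP DNA in Cy5 and input DNA in Cy3 on every array. No age, breed or fertility score of the bulls was used here, and the bull is the unit of replication.

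In mammalian spermatozoa most histones are replaced by protamines, and the nucleosomes that stay lie in large part over CpG-rich promoters. In human and mouse sperm, promoters of developmental genes can carry H3K4 methylation and H3K27me3 together. CDX2, a caudal-type homeobox factor, and ELF5, an ETS-family factor, act in trophectoderm and trophoblast, the lineage that forms the placenta. In the mouse, PRDM14, a PR-domain protein, acts in pluripotent cells and in the specification of primordial germ cells. ZAR1 (zygote arrest 1) is a maternal factor that mouse embryos need at the first divisions, and GDF9 is a growth factor of the TGF-beta family that the oocyte secretes to the follicle.

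Every value below is log2(ChIP/input) after subtraction of the array's median. A value of 0 means a ChIP to input ratio equal to the array median, and it gives no absolute amount of the mark. Among 1593 pairs of spots that carry identical sequences, the median absolute difference was 0.07 to 0.14 log2 units per array, and the only such pair among the 5 genes, at PRDM14, differed by at most 0.13 on the 12 arrays. Over all 6805 genes the median absolute difference between bulls within a mark was 0.75 log2 units, and between the marks within a bull it was 0.46.

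Bulls SF5 and HF5 stood apart from the rest in ChIP signal. Their H3K4me2 arrays had ChIP signal well above background at 95.7% (SF5) and 93.9% (HF5) of probes, and the H3K27me3 array of HF5 at 97.1%, against 98.9% to 99.98% on the other 9 arrays. On the same 3 arrays, probes of low GC content gave low ratios: the median of the 9443 probes with at most 40% GC was -1.21 in SF5 and -1.21 in HF5 for H3K4me2 and -0.93 in HF5 for H3K27me3, against -0.23 to 0.45 on the other 9 arrays. HF3 stood apart in input, which was well above background at 97.7% (H3K4me2) and 97.07% (H3K27me3) of probes. On the arrays of the other bulls this was 99.36% to 99.94%. The low-GC medians of HF3, 0.45 and 0.33, were the highest of each mark. The differences between fertility groups are given below also without SF5 and HF5. As a look at the labelled cell type, 8 of 19 sperm and spermatid genes had enough probes, and their median H3K4me2 ratio was 0.08 to 0.60 per SF bull and -0.48 to 0.38 per HF bull. The 6 measured of 14 leukocyte genes gave medians of -0.15 to 0.56 in SF and -0.30 to 0.36 in HF. The 5 measured of 8 epithelial genes gave -0.03 to 0.16 in SF and -0.10 to -0.01 in HF. The 5 measured of 13 somatic testis genes gave -0.23 to 0.28 in SF and -0.26 to 0.20 in HF. For H3K27me3 the sperm medians were -0.11 to 0.29 in SF and -0.73 to 0.16 in HF. The leukocyte, epithelial and somatic testis medians spanned -0.10 to 0.56, -0.71 to 0.47 and -0.23 to 0.67 in SF. In HF they spanned 0.06 to 0.28, -0.28 to -0.13 and -0.50 to 0.15. The sperm range overlapped each other list's in either group and mark. The part of other cells in the results was not tested.

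The probes of the 5 genes fell into 21 separate stretches, a stretch being a run of probes whose sequences overlap. Positions are those of the cattle build HGSC Btau_3.1, on which the array was designed, and how well the probes match buffalo sequence was not tested. ZAR1 was the most compact, with 18 probes (17 annotated to a CpG island and 1 to a promoter) in a single stretch of 173 bases, chr6:69751494-69751666, given here on the plus strand with each CG dinucleotide in capitals because its values differ from base to base as described below.

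ZAR1, chr6:69751494-69751666: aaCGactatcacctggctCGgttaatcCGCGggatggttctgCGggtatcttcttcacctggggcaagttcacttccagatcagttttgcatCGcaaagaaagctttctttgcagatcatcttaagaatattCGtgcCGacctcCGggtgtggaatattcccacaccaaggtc

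The stretch held 9 CG dinucleotides, of which 1 lies in the middle portion shared by the probes that diverge most between bulls. CDX2 had the most probes, 69, all annotated to a CpG island, in 6 stretches between chr12:32026653 and 32030104. Its stretches 5 and 6, which lie 5 bases apart, are shown because they gave different values in the same bulls.

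CDX2 stretch 5, chr12:32029827-32029970: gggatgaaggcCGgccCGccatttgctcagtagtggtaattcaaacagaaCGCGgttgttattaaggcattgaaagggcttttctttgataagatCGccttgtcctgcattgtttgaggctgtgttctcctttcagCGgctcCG
CDX2 stretch 6, chr12:32029976-32030104: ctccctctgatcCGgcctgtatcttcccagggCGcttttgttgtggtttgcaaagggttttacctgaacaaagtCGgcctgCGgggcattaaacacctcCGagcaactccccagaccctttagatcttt

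PRDM14 had 38 probes in 8 stretches between chr14:34079982 and 34083310, of which 33 were annotated to a CpG island, 4 to a promoter and 1 to coding sequence. Stretch 7 is shown because the bulls diverged most widely in it for H3K4me2.

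PRDM14 stretch 7, chr14:34083054-34083133: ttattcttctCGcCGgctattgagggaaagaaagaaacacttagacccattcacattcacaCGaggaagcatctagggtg

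ELF5 had 4 promoter probes that do not overlap, on chr15 between 64764748 and 64768372. They held 0 or 1 CG dinucleotide each, against a median of 3 over the CpG island probes of the array and 1 over its promoter probes. All 4 are shown, since each of them carried the difference between the groups.

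ELF5 probe 1, chr15:64764748-64764807: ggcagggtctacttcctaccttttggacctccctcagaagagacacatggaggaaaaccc
ELF5 probe 2, chr15:64765673-64765732: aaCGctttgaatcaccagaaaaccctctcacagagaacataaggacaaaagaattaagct
ELF5 probe 3, chr15:64767653-64767712: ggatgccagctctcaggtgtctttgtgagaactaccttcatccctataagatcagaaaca
ELF5 probe 4, chr15:64768313-64768372: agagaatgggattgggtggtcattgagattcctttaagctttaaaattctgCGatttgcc

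GDF9 had 2 probes on chr7, a promoter probe at 44094168-44094227 and a probe listed only with its CpG island, 44095363-44096141, so its own position within the island is not known here. These are shown because a gene value that rests on 2 probes is the mean of these sequences alone. Both carry the symbol GDF9 in the array's own annotation. Whether the island lies at GDF9 itself or at the neighbouring gene UQCRQ was not tested.

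GDF9 promoter probe, chr7:44094168-44094227: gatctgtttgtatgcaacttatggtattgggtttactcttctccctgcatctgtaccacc
GDF9 island probe, within chr7:44095363-44096141: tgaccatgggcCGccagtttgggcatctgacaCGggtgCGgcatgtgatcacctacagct

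The question set by the series is how H3K4me2 and H3K27me3 differ between subfertile and high-fertile bulls. Of the 5 genes, ELF5 separated the groups in H3K4me2, with all 3 SF bulls lower. ZAR1 and CDX2 separated them in H3K27me3, with all 3 SF bulls higher. PRDM14 and GDF9 separated them in neither mark. By the same count over all 6805 genes, the groups did not overlap in 6.58% of genes for H3K4me2 (448 genes) and 8.57% for H3K27me3 (583 genes), and the 5 genes were picked with these values in view, so nothing is read from 1 and 2 of 5. SF lay wholly below HF in 3.48% and wholly above it in 3.1% of genes for H3K4me2, and below in 4.56% and above in 4.01% for H3K27me3. In limma, 0 of 6805 genes (0%) passed an adjusted p of 0.05 between SF and HF in H3K4me2 and 0 (0%) in H3K27me3. At an unadjusted threshold of 0.05 there were 198 genes (2.91%) for H3K4me2 and 277 (4.07%) for H3K27me3.

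None of the 5 genes lay on the same side of 0 in all 6 bulls in either mark. Over all genes, all 6 bulls were above 0 in 2.01% for H3K4me2 and 1.63% for H3K27me3, and below 0 in 1.57% and 1.88%. Set against 0 in limma, 0 of 6805 genes (0%) passed an adjusted p of 0.05 for either mark, with 4.44% past an unadjusted threshold of 0.05 for H3K4me2 and 5.29% for H3K27me3.

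**Figure D1:**
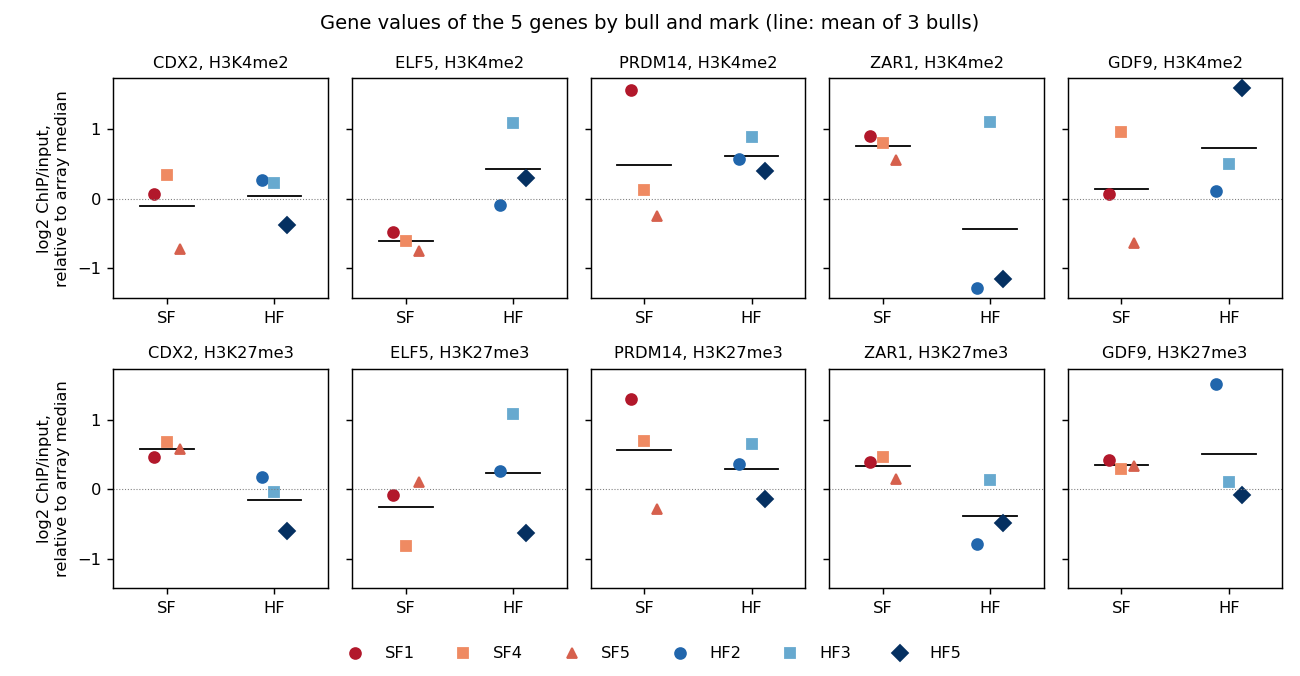
Gene values of CDX2, ELF5, PRDM14, ZAR1 and GDF9 (columns) for H3K4me2 (upper row) and H3K27me3 (lower row), as log2(ChIP/input) minus the array median. Each point is a bull and each line the mean of 3 bulls, SF left of HF; for ELF5 in H3K4me2 the SF bulls lie between -0.75 and -0.48 and the HF bulls between -0.09 and 1.08.

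ELF5 had H3K4me2 ratios of -0.48, -0.60 and -0.75 in SF1, SF4 and SF5, against -0.09, 1.08 and 0.29 in HF2, HF3 and HF5. The 3 SF bulls lay close together below 0, while the HF bulls were spread over more than 1 unit with HF3 highest. The mean was -0.61 ± 0.14 in SF and 0.43 ± 0.60 in HF (SD, n = 3 each), a difference of -1.04 (95% CI -2.08 to -0.01), or 0.49 times the HF ratio. A lower difference was seen in 4.17% of genes. ELF5 was picked with this comparison in view, so neither the rank nor the interval is a test. All 4 promoter probes gave a lower SF mean, with differences of -1.09, -1.21, -0.89 and -0.97 from probe 1 to probe 4, although the groups did not overlap at probe 4 alone. At probe 4 the ratios were -0.84, -0.96 and -0.63 in SF1, SF4 and SF5, against -0.30, 0.03 and 0.76 in HF2, HF3 and HF5.

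The input signal of ELF5 also differed between bulls. Relative to the array median, input on the H3K4me2 arrays was 0.01, 0.23 and -0.65 in SF1, SF4 and SF5, against -0.22, -1.17 and -0.08 in HF2, HF3 and HF5. HF3, the bull with the highest ELF5 ratio, thus had the lowest input. The ChIP signal alone differed by -0.70 between SF and HF, in the same direction as the ratio. Without HF3 the difference of the ratio was -0.71, and without both SF5 and HF5 it was -1.04. Slide 4 carried SF1 and HF5, while each of the other slides carried a single bull, and SF1 minus HF5 there was -0.77. When each probe was set against the median of all probes of equal GC content, the difference was -1.0.

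In H3K27me3, ELF5 had ratios of -0.08, -0.82 and 0.11 in SF1, SF4 and SF5, against 0.25, 1.08 and -0.63 in HF2, HF3 and HF5. The groups overlapped, with a mean of -0.26 ± 0.49 in SF and 0.23 ± 0.86 in HF (SD, n = 3 each). The difference was -0.50 (95% CI -1.69 to 0.70), and the value within slide 4 had the opposite sign, 0.55. It was -1.12 without SF5 and HF5, -0.93 without HF5, -0.22 without SF4 and -0.07 without HF3. HF3 was again the highest bull, and its ELF5 ratio was 1.08 for either mark.

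CDX2, the other trophectoderm factor, had H3K27me3 ratios of 0.46, 0.68 and 0.57 in SF1, SF4 and SF5, against 0.18, -0.04 and -0.60 in HF2, HF3 and HF5. All 3 SF bulls lay above all 3 HF bulls, with a mean of 0.57 ± 0.11 in SF and -0.15 ± 0.40 in HF (SD, n = 3 each). The difference was 0.72 (95% CI -0.14 to 1.59), or 1.65 times the HF ratio. Within slide 4 it was 1.07, and without both SF5 and HF5 it was 0.50. Without HF5 alone it was also 0.50. H3K4me2 showed no such order, with 0.06, 0.34 and -0.72 in SF1, SF4 and SF5, against 0.27, 0.22 and -0.38 in HF2, HF3 and HF5. The H3K4me2 difference was -0.15 (95% CI -1.20 to 0.91), and SF5 and HF5 were the lowest bull of their group. Its sign turned on 1 bull, at 0.16 without SF5, and it was -0.05 without SF5 and HF5 and 0.45 within slide 4. Without other single bulls it ran from -0.37 (without SF4) to -0.03 (without HF2).

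The 6 stretches of CDX2 did not move together. In H3K27me3 5 of the 6 had a higher SF mean, from 0.25 at stretch 1 to 1.57 at stretch 5, and stretch 4 had a difference of -0.09. The groups overlapped at each of the 6 stretches, so the separation seen in the gene value is that of the mean over 69 probes. Stretch 5, with 22 probes the largest, had H3K27me3 ratios of 1.12, 1.42 and -0.03 in SF1, SF4 and SF5, against 0.65, -0.30 and -2.55 in HF2, HF3 and HF5. HF5 stood far below every other bull there. With each of the 6 stretches weighted equally, the H3K27me3 difference of CDX2 was 0.67.

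In H3K4me2, stretch 5 was lowest in bulls of different groups, at 0.12, 0.95 and -2.66 in SF1, SF4 and SF5, against 0.34, 1.09 and -1.95 in HF2, HF3 and HF5. Stretch 6, which begins 5 bases after stretch 5 ends, had 0.44, 0.79 and 0.26 in SF1, SF4 and SF5, against 0.03, 0.90 and 0.73 in HF2, HF3 and HF5. It was the only one of the 21 stretches that lay above 0 in all 6 bulls for H3K4me2. The low values of stretch 5 in SF5 and HF5 went with the highest inputs of the 6 bulls on the H3K4me2 arrays, -0.25 in SF5 and -0.36 in HF5, against -2.14 to -0.58 in the other 4 bulls, and the part of input in them was not tested. ChIP signal was not well above background at 12 of 69 CDX2 probes in SF5 and 8 of 69 in HF5 for H3K4me2 and at 10 of 69 in HF5 for H3K27me3, so the lowest ratios there are bounds. The probe with the lowest mean H3K4me2 ratio of CDX2, chr12:32029863-32029922, has 35.0% GC and read -3.92 in SF5 and -4.13 in HF5. Probes of such GC content were low across these arrays, as given above, and the part of GC content in stretch 5 was not tested.

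**Figure D2:**
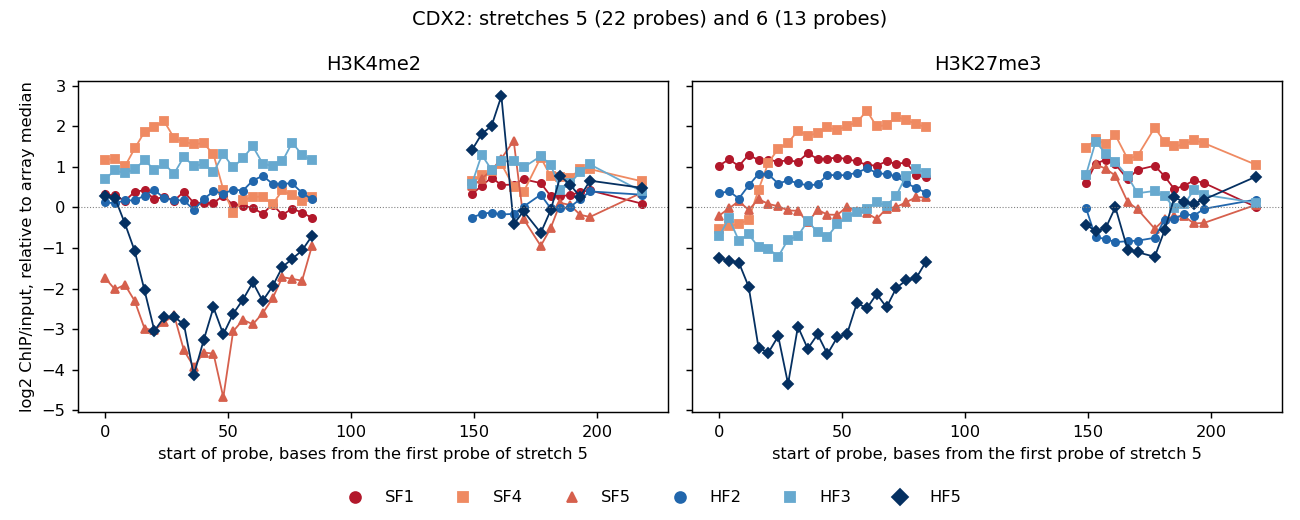
Probe values along CDX2 stretches 5 and 6 for H3K4me2 (left) and H3K27me3 (right), as log2 ChIP over input against the start of each probe in bases from the first probe of stretch 5. Each line is a bull. In stretch 5, SF5 and HF5 in H3K4me2, and HF5 in H3K27me3, dip to lowest probes of -4.68, -4.13 and -4.35. They rise towards the other bulls by the end of stretch 5 and in stretch 6, where HF5 in H3K27me3 still reads -1.21 at its lowest probe.

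PRDM14 had a mean H3K4me2 ratio of 0.55 ± 0.63 (SD, n = 6, 95% CI -0.07 to 1.17), above 95.0% of genes. Its mean H3K27me3 ratio was 0.43 ± 0.58 (SD, n = 6, 95% CI -0.14 to 1.00), above 94.0% of genes. Without SF1 these means were 0.28 for H3K4me2 and 0.25 for H3K27me3. The ChIP signal alone, relative to the array median, averaged -0.13 for H3K4me2 and -0.22 for H3K27me3. Input on the H3K4me2 arrays was -1.41, -0.80 and -0.17 in SF1, SF4 and SF5, against -0.72, -0.99 and -0.34 in HF2, HF3 and HF5. SF1, the bull of highest ratio, had the lowest input, and SF5, of lowest ratio, the highest. The part of input in the PRDM14 ratios was not tested. H3K4me2 was 1.57, 0.13 and -0.26 in SF1, SF4 and SF5, against 0.58, 0.88 and 0.40 in HF2, HF3 and HF5. The SF bulls spanned the whole range, SF1 at the 98.3rd and SF5 at the 38.1st percentile of all genes on their arrays, and the HF bulls fell between them. The SF mean of 0.48 ± 0.96 and the HF mean of 0.62 ± 0.24 (SD, n = 3 each) differed by -0.14 (95% CI -1.39 to 1.11). This difference had no stable sign: it was -0.68 without SF1, 0.04 without SF4, 0.23 without SF5, 0.12 without SF5 and HF5, and 1.16 within slide 4. H3K27me3 again had SF1 highest and SF5 lowest, with 1.30, 0.69 and -0.29 in SF1, SF4 and SF5, against 0.37, 0.64 and -0.14 in HF2, HF3 and HF5. The H3K27me3 difference was 0.28 (95% CI -0.86 to 1.41), and SF1 minus HF5 within slide 4 was 1.44. The H3K27me3 difference was -0.09 without SF1, 0.70 without SF5, 0.06 without HF5 and 0.49 without SF5 and HF5.

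The PRDM14 level rested on 2 of its 8 stretches. Stretch 5 (17 probes) averaged 0.92 over the 6 bulls in H3K4me2 and stretch 7 (7 probes) 0.68, whereas the other 6 stretches averaged between -0.29 and 0.51. In stretch 5, H3K4me2 was 1.98, 0.70 and -0.33 in SF1, SF4 and SF5, against 1.28, 1.23 and 0.68 in HF2, HF3 and HF5. The probe of highest mean in PRDM14 was above 0 in all 6 bulls, at 1.70, 0.66 and 0.67 in SF1, SF4 and SF5, against 1.60, 1.37 and 1.49 in HF2, HF3 and HF5. In stretch 7 the bulls diverged, with 2.83, -0.24 and -1.53 in SF1, SF4 and SF5, against 0.12, 2.41 and 0.50 in HF2, HF3 and HF5. With the 8 stretches weighted equally, the mean ratio of PRDM14 was 0.27 for H3K4me2 and 0.18 for H3K27me3. Stretches of this gene also went opposite ways in the same bull: at stretch 1, where the duplicate spots lie, SF5 read 2.06 and SF1 -0.75 for H3K4me2.

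**Figure D3:**
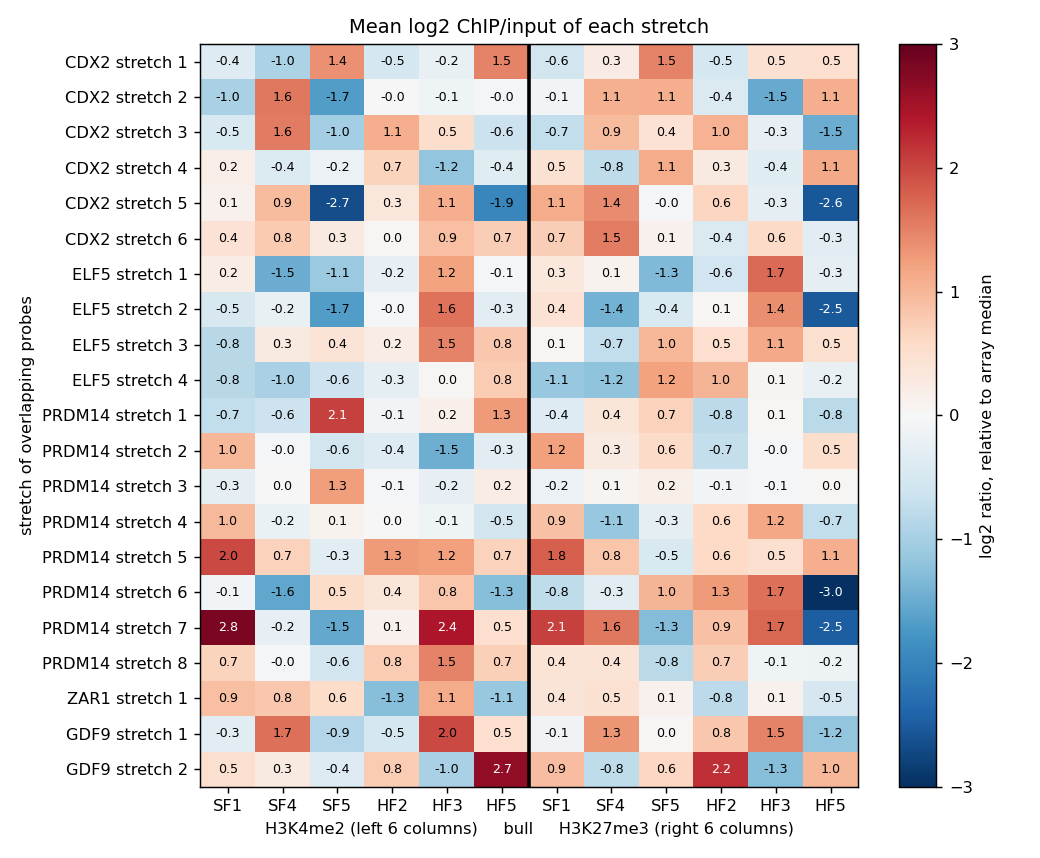
Mean log2 ChIP over input of each of the 21 stretches (rows) in each bull, with H3K4me2 in the left 6 columns and H3K27me3 in the right 6, SF bulls left of HF bulls. Colours run from -3 (blue) to 3 (red); stretches of the same gene differ in sign within a bull, from -2.66 to 1.37 within CDX2 in SF5.

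ZAR1, the maternal factor, had H3K4me2 ratios of 0.90, 0.80 and 0.56 in SF1, SF4 and SF5, against -1.28, 1.10 and -1.15 in HF2, HF3 and HF5. The SF bulls were close to each other and above 0, while HF2 and HF5 lay more than 1 unit below 0 and HF3 above every SF bull, so the groups overlapped. The SF mean was 0.75 ± 0.18 and the HF mean -0.44 ± 1.34 (SD, n = 3 each), a difference of 1.20 (95% CI -0.30 to 2.69), or 2.29 times the HF ratio. In all 18 probes the SF mean was higher, by 0.36 to 1.87. H3K27me3 was 0.38, 0.46 and 0.14 in SF1, SF4 and SF5, against -0.79, 0.12 and -0.49 in HF2, HF3 and HF5, and here the groups did not overlap, though SF5 and HF3 differed by no more than duplicate spots do. The H3K27me3 difference was 0.72 (95% CI -0.19 to 1.62), and again all 18 probes had a higher SF mean. The groups did not overlap at 0 of the 18 probes for H3K4me2 and at 4 of 18 for H3K27me3. Neighbouring probes share most of their bases, so the 18 are not independent.

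Without HF3 the H3K4me2 difference of ZAR1 was 1.97, and without HF2 it was 0.78. Without both SF5 and HF5 it was 0.94 for H3K4me2 and 0.76 for H3K27me3. Within slide 4, SF1 minus HF5 was 2.05 for H3K4me2 and 0.88 for H3K27me3. HF2 held the lowest ZAR1 ratio of either mark, at the 0.78th percentile of its H3K4me2 array and the 6.86th of its H3K27me3 array.

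The input of ZAR1 differed between bulls. On the H3K4me2 arrays it was -2.08, -0.77 and -2.44 in SF1, SF4 and SF5, against -0.41, -1.93 and -0.79 in HF2, HF3 and HF5. On the H3K27me3 arrays, which hybridised input of the same bulls again, it was -2.12, -0.76 and -2.50 in SF1, SF4 and SF5, against -0.43, -2.14 and -1.0 in HF2, HF3 and HF5. The input of a bull thus differed between its arrays by much less than the full range over the bulls. Some bulls also lay close to each other, such as SF4 and HF5 on the H3K4me2 arrays. The 2 bulls of lowest ZAR1 ratio, HF2 and HF5, were among the 3 of highest input. The ChIP signal alone differed by 0.47 between SF and HF for H3K4me2 and by 0.09 for H3K27me3, less than the ratios. Whether the ratio at ZAR1 follows the mark or the amount of input was not tested.

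**Figure D4:**
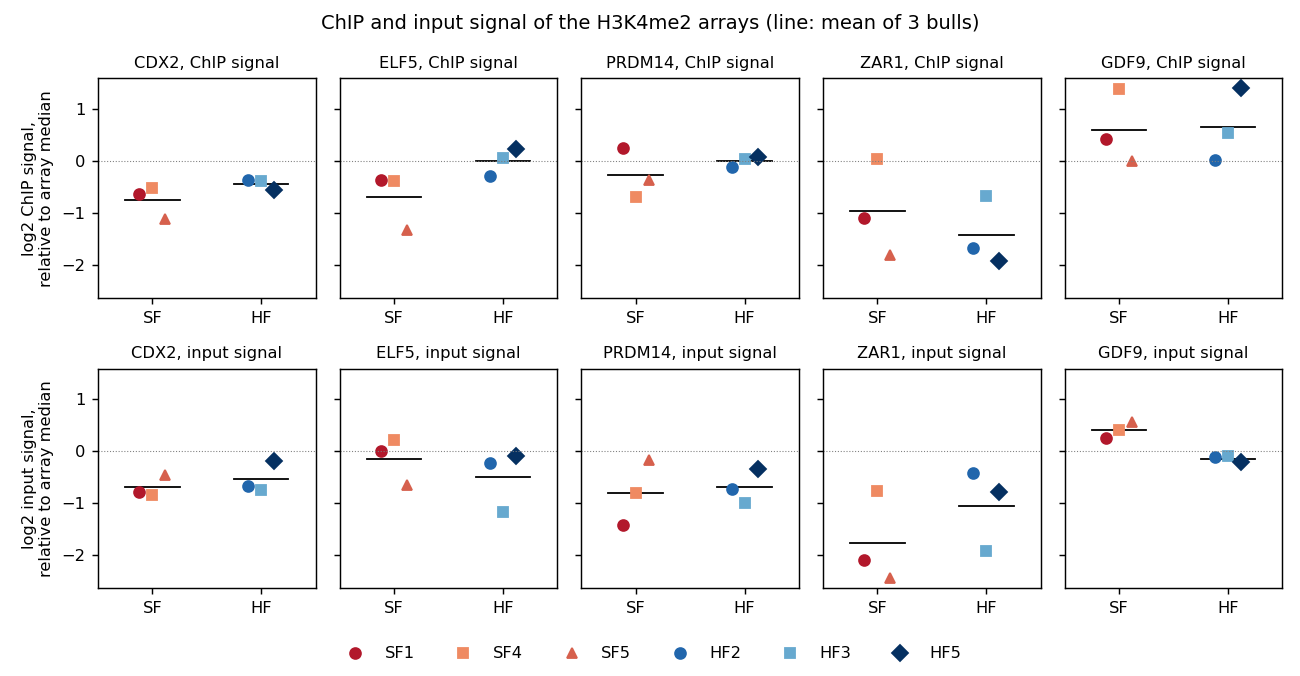
Log2 ChIP signal (upper row) and log2 input signal (lower row) of the 5 genes on the H3K4me2 arrays, minus the array median. Each point is a bull and each line the mean of 3 bulls, SF left of HF; ZAR1 input lies between -2.44 and -0.41 while GDF9 input lies between -0.20 and 0.57.

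Along the ZAR1 stretch the bulls parted in its middle. The probe chr6:69751566-69751625, of 35.0% GC, had both the highest mean H3K4me2 ratio of the gene (0.67) and its lowest mean H3K27me3 ratio (-0.64). Its H3K4me2 ratios were 3.25, 0.81 and 0.43 in SF1, SF4 and SF5, against -1.39, 3.77 and -2.83 in HF2, HF3 and HF5. Its H3K27me3 ratios were 1.36, 0.29 and -1.46 in SF1, SF4 and SF5, against -0.76, 0.45 and -3.69 in HF2, HF3 and HF5. The next probe, which starts 21 bases further on, read 0.74, 0.03 and 0.55 in SF1, SF4 and SF5 for H3K4me2, against -1.40, 0.95 and 0.70 in HF2, HF3 and HF5, so SF1, HF3 and HF5 returned towards the others within that distance while HF2 stayed the same. In SF5 and in HF5, 4 of 18 ZAR1 probes had H3K4me2 ChIP signal not well above background, and in SF1, SF5 and HF3, 3 of 18 had input not well above background. On the H3K27me3 arrays, ChIP signal was not well above background at 3 of 18 probes in SF5, in HF3 and in HF5. Input there was not well above background at 3 of 18 in SF1, 2 in SF5 and 4 in HF3. The extremes in the middle of the stretch are in part bounds for that reason. With only probes well above background in both colours on all arrays, the ZAR1 difference was 1.13 for H3K4me2 and 0.50 for H3K27me3.

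**Figure D5:**
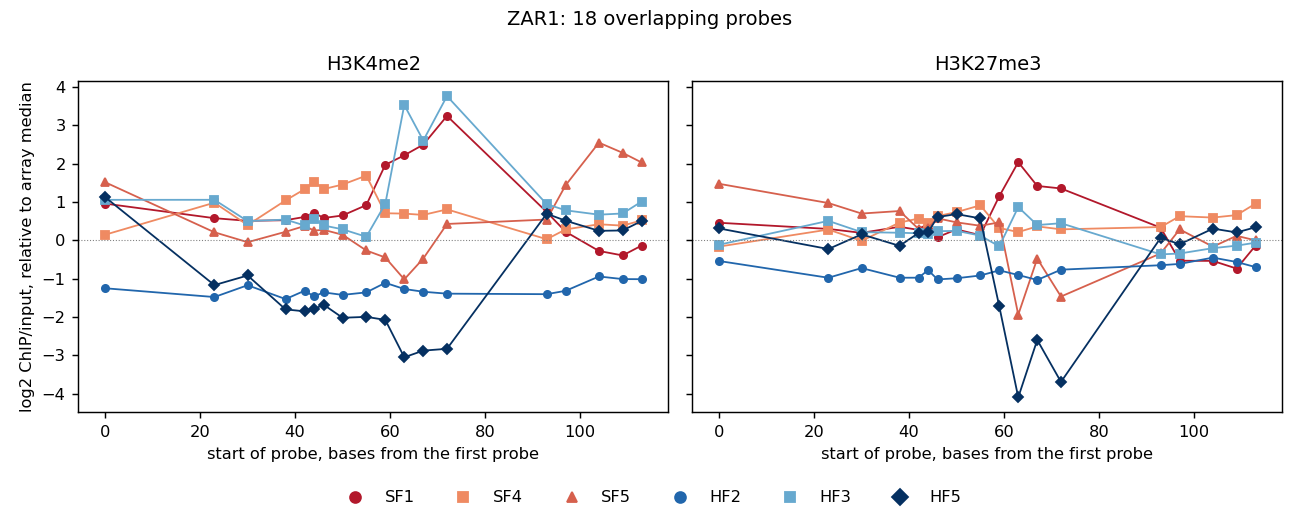
Log2 ChIP over input of the 18 ZAR1 probes for H3K4me2 (left) and H3K27me3 (right) against the start of each probe in bases from the first probe. Each line is a bull; HF2 stays between -1.53 and -0.94 over the whole stretch for H3K4me2, while HF5 ranges from -3.05 to 1.13.

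GDF9, the oocyte growth factor, had mean ratios of 0.43 ± 0.77 for H3K4me2 and 0.43 ± 0.56 for H3K27me3 (SD, n = 6 each), above 90.6% and 93.9% of genes. For H3K4me2 it read 0.07, 0.96 and -0.64 in SF1, SF4 and SF5, against 0.11, 0.50 and 1.58 in HF2, HF3 and HF5. For H3K27me3 it read 0.42, 0.28 and 0.33 in SF1, SF4 and SF5, against 1.50, 0.10 and -0.09 in HF2, HF3 and HF5. The groups overlapped in either mark, and the bull that was highest differed between the marks, HF5 for H3K4me2 and HF2 for H3K27me3. The differences were -0.60 (95% CI -1.92 to 0.72) for H3K4me2 and -0.16 (95% CI -1.28 to 0.96) for H3K27me3. Without both SF5 and HF5 the H3K4me2 difference was 0.21, of the opposite sign, and that of H3K27me3 was -0.45. Without HF2 the H3K27me3 difference was 0.34. The H3K4me2 difference was -0.17 without HF5, -0.22 without SF5 and -1.02 without SF4.

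The 2 GDF9 probes disagreed. In HF3 the promoter probe read 1.97 and the island probe -0.97 for H3K4me2, and 1.49 and -1.28 for H3K27me3. In HF5 the order was turned round, with 0.50 at the promoter probe and 2.67 at the island probe for H3K4me2. The mean of the 2 is thus not the level of either in these bulls. On the H3K4me2 arrays the input of GDF9 was 0.27, 0.42 and 0.57 in SF1, SF4 and SF5, against -0.12, -0.10 and -0.20 in HF2, HF3 and HF5. The groups did not overlap on those arrays. On the H3K27me3 arrays it was 0.39, 0.19 and 0.52 in SF1, SF4 and SF5, against -0.08, 0.25 and -0.05 in HF2, HF3 and HF5. There the groups overlapped.

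Over all 21 stretches, the SF mean of H3K4me2 was higher at 5 and lower at 16, and that of H3K27me3 was higher at 12 and lower at 9. The 16 were 5 of CDX2, 4 of ELF5, 5 of PRDM14 and 2 of GDF9. By genes, of all 6805 the SF mean was higher in 3523 and lower in 3282 for H3K4me2, and in 3354 and 3451 for H3K27me3. The 5 genes were picked with these differences in view, so nothing is read from the counts of their stretches. The groups did not overlap at 2 stretches for H3K4me2, ELF5 probe 4 and PRDM14 stretch 8, with SF below HF at each. For H3K27me3 they did not overlap at 1 stretch, that of ZAR1. By single probes, SF lay wholly below HF in H3K4me2 at 1 of 69 CDX2 probes, 1 of 4 ELF5 probes and 1 of 37 PRDM14 probes measured on all arrays, and wholly above at 1 of those 37. For H3K27me3 only the 4 ZAR1 probes did not overlap. Over the whole array, 7.17% of probes had groups that did not overlap for H3K4me2 and 8.02% for H3K27me3.

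The comparison of H3K4me2 with H3K27me3 in the same spermatozoa gave small differences for the 5 genes. H3K4me2 minus H3K27me3 was -0.25 for CDX2 (95% CI -0.84 to 0.35), -0.08 for ELF5 (-0.81 to 0.66) and 0.12 for PRDM14 (-0.69 to 0.93). It was 0.19 for ZAR1 (-0.67 to 1.04) and 0.01 for GDF9 (-0.84 to 0.85). None of these passed limma's test over all genes, each with an adjusted p of 1.00, and 0 of 6805 genes (0%) passed it (41 genes, 0.602%, at an unadjusted threshold of 0.05). With the bull as a replicate block the interval was -0.70 to 0.20 for CDX2 and -0.31 to 0.55 for PRDM14, and the adjusted p of the 5 genes ran from 0.93 to 1.00. PRDM14 had the higher H3K4me2 ratio in 5 of 6 bulls, ZAR1 in 4, and CDX2, ELF5 and GDF9 in 3. A difference of the same sign in all 6 bulls was seen in 0 of the 5 genes and in 3.54% of all genes.

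For 4 of the 5 genes the arrays of a bull were closer to each other than arrays of different bulls. The mean absolute difference between marks within a bull, against that between bulls within a mark, was 0.31 against 0.74 log2 units for PRDM14 and 0.46 against 0.82 for ELF5. It was 0.57 against 0.91 for ZAR1 and 0.44 against 0.53 for CDX2. GDF9 was the exception, with 0.91 within a bull against 0.77 between bulls. The arrays of a bull share the bull, the slide and its input DNA, and the part of each was not tested.

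The fertility difference was also compared between the marks. The SF minus HF difference in H3K4me2 less that in H3K27me3 was -0.87 for CDX2 (95% CI -2.06 to 0.32), -0.54 for ELF5 (-2.02 to 0.93), -0.42 for PRDM14 (-2.04 to 1.20), 0.48 for ZAR1 (-1.23 to 2.19) and -0.44 for GDF9 (-2.12 to 1.25). Each had an adjusted p of 1.00 in limma, and 0 of 6805 genes (0%) passed (45, 0.661%, at an unadjusted threshold of 0.05). With the bull as a replicate block, the interval for CDX2 was -1.77 to 0.03 and its adjusted p 0.96.

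Genes of the same stages were taken from lists by role, and the lists include the 5 genes. CDX2 and ELF5 are in the trophectoderm list, ZAR1 and GDF9 in the oocyte list and PRDM14 in the pluripotency list. The listed genes without overlap thus include ELF5 for H3K4me2, and CDX2 and ZAR1 for H3K27me3. These were picked with that comparison in view. Of 27 measured trophectoderm and trophoblast genes, 12 had a higher and 15 a lower SF mean in H3K4me2, with a median difference of -0.02, and 2 had groups that did not overlap (6.58% of all genes). In H3K27me3 11 were higher and 16 lower, with a median difference of -0.03, and 2 did not overlap (8.57% of all genes). Over all genes the median difference was 0.02 for H3K4me2 and -0.01 for H3K27me3. The highest mean H3K4me2 ratios of the list were 0.56 ± 0.88 for the adhesion protein CDH1 and 0.40 ± 1.31 for TFAP2B, and the lowest -0.53 ± 0.88 for PTGS2, a prostaglandin synthase, and -0.38 ± 0.64 for ETS1 (SD, n = 6 each). TFAP2B, an AP-2 factor, was also highest in H3K27me3, at 1.08 ± 0.68 with 5 of 6 bulls above 0, followed by SMARCA4, a chromatin remodeller, at 0.45 ± 0.62. ETS1 (-0.44 ± 0.57) and PTGS2 (-0.42 ± 0.69) were the lowest in H3K27me3 as well.

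The oocyte list had 10 measured genes, of which 5 had a higher and 5 a lower SF mean in each mark. The median difference was 0.02 for H3K4me2 and -0.06 for H3K27me3, and the groups did not overlap in 0 of 10 genes for H3K4me2 (6.58% of all genes) and 3 of 10 for H3K27me3 (8.57% of all genes). NPM3, a nucleoplasmin-family chaperone, had the highest mean H3K4me2 ratio, 1.09 ± 1.90, with SF5 at -2.10 and HF5 at 3.45, and GDF9 came second. TRIM28, a co-repressor, was lowest in either mark, at -0.28 ± 0.62 for H3K4me2 and -0.91 ± 0.84 for H3K27me3, below 0 in 5 of 6 bulls each time. NLRP5, a maternal-effect protein, had -0.08 ± 0.24 for H3K4me2. In H3K27me3 OOEP, of the subcortical maternal complex, followed GDF9 with 0.30 ± 0.59, and ZAR1L, the paralogue of ZAR1, had -0.10 ± 0.42 (SD, n = 6 each).

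Of 20 measured genes of pluripotency and primordial germ cells, 10 had a higher and 10 a lower SF mean in H3K4me2, and 8 and 12 in H3K27me3, with median differences of 0.03 and -0.13. The groups did not overlap in 1 of 20 genes in each mark (6.58% of all genes for H3K4me2 and 8.57% for H3K27me3). PRDM1, which acts with PRDM14 in mouse germ cell specification, was the highest of the list in H3K4me2 at 0.57 ± 0.47, with all 6 bulls above 0, just ahead of PRDM14. PRDM1, SPIC and POU5F1 rest on 2 probes each. The lowest were SPIC (-0.60 ± 0.71) and the homeobox factor OTX2 (-0.56 ± 0.42), each below 0 in 5 of 6 bulls. In H3K27me3 POU5F1, the pluripotency factor, led with 0.44 ± 1.13 and PRDM14 followed, while OTX2 (-0.40 ± 0.57) and SPIC (-0.28 ± 0.94) were again the lowest (SD, n = 6 each).

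Among 9 measured primitive endoderm genes, 3 had a higher and 6 a lower SF mean in H3K4me2, and 4 and 5 in H3K27me3. The groups did not overlap in 1 of 9 genes in each mark (6.58% of all genes for H3K4me2 and 8.57% for H3K27me3). AFP, a secreted endodermal protein, was highest in either mark, at 0.52 ± 0.85 for H3K4me2 and 0.29 ± 0.59 for H3K27me3. DAB2, an endocytic adaptor, had 0.36 ± 0.59 for H3K4me2, and PDGFRA, a receptor of the lineage, had -0.06 ± 0.24 for H3K4me2 and 0.01 ± 0.26 for H3K27me3. COL4A1, a basement membrane collagen, had -0.09 ± 0.42 for H3K4me2 and -0.13 ± 0.32 for H3K27me3, and the endoderm factor SOX17 had -0.16 ± 0.57 for H3K27me3 (SD, n = 6 each). AFP, TFAP2B and OOEP rest on 3 probes each. In all 4 lists, 0 genes passed limma's adjusted p of 0.05 between the groups.

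The genes nearest in pattern to each of the 5 were sought over the 12 arrays of 6 bulls, among 4285 to 4288 genes with at least 5 probes. For ELF5 they were PDX1 (r = 0.94) and CHP1 (r = 0.93), and for PRDM14 TUBGCP3 (r = 0.94) and LIN37 (r = 0.91). CLDN12 (r = 0.85) was among those of CDX2. They were for ZAR1 PPT2 (r = 0.84) and GID8 (r = 0.83), and for GDF9 SIM1 (r = 0.81) and PCNA (r = 0.80). Each was chosen as the likest of all candidates, and the arrays share bulls, input and GC dependence, so these are descriptions. Among the 5 themselves r ran from -0.36 (ZAR1 with GDF9) to 0.36 (CDX2 with PRDM14). The size of the values also differed between genes of like pattern: HF3 read 2.78 at CHP1 and 1.08 at ELF5 for H3K4me2.

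Within 10 kb of the 5 genes the array held probes of 3 other symbols. PRHOXNB, with 17 probes beside CDX2, had H3K27me3 ratios of 0.40, -0.23 and -1.07 in SF1, SF4 and SF5, against -0.04, -0.15 and 0.10 in HF2, HF3 and HF5, so the separation at CDX2 was not seen there. SLC10A4, with 2 probes beside ZAR1, had H3K4me2 ratios of -0.50, 0.33 and -1.79 in SF1, SF4 and SF5, against -0.14, 1.91 and 0.24 in HF2, HF3 and HF5. HF3 was highest there as at ZAR1 in that mark, while SF5 was lowest. In H3K27me3, the mark in which SF lay above HF at ZAR1, SLC10A4 had -0.29, -0.21 and -1.51 in SF1, SF4 and SF5. HF2, HF3 and HF5 had -0.16, 1.93 and 0.58 there. SF thus lay wholly below HF at SLC10A4, as in 4.56% of all genes, the other way from ZAR1. However, SF4 (-0.21) and HF2 (-0.16) differed there by no more than duplicate spots do. UQCRQ, with 1 probe beside GDF9, ranged from -2.14 in SF5 to 2.76 in HF3 for H3K4me2.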

How the data were processed

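Per the labels' protocols, micrococcal nuclease cut the cross-linked sperm chromatin, and the DNA pulled down for each mark was amplified, with ChIP in Cy5 and input in Cy3 and no dye swap. Agilent Feature Extraction 10.7, per the submitters' processing notes (10.7.3.1 per the file headers), gave the deposited intensity values, background-subtracted and dye-normalized. The log10 ratio of Cy5 over Cy3 deposited beside them was used only to check the ratios. The deposited value table holds log2 ratios, used as an alternative. Its columns correlated with the log2 ratios used here at 0.741 to 0.995 and, after within-array loess, at 0.983 to 0.996, which settles its direction; its method is not given in the sources used here. Its column medians ran from -0.13 to 0.1.

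From the deposited intensity values, log2(Cy5/Cy3) was taken per probe and centred on the median of each array's kept probes. Of 177440 probes, 177372 were kept (those with input well above background on 6 or more of the 12 arrays). Outlier spots numbered 13 to 546 per array and were treated as missing; saturated spots were used. The median processed signal per array was 645 to 815 in input and 622 to 742 in ChIP, and 3 bulls per group limit the precision. A gene's value is the mean of its kept probes. Fits used limma 3.58.1 in R 4.3.3 (two-sided, Benjamini-Hochberg over 6805 genes), each mark's groups on 6 arrays and the mark comparison and interaction on 12, and were tested on simulated data. Named genes were the 5 genes, the 2 highest and 2 lowest of each list per mark, and the 2 likest genes to each of the 5. For CDX2 and PRDM14, 1 item each is not reported here. The members and lists were chosen with earlier results of these data known. The H3K4me2 and H3K27me3 arrays of a bull number share a slide, and their deviations in input correlated at 0.959 to 0.983 across genes (at most 0.198 between bulls), so bull entered as a replicate block in an alternative; number 5 names different bulls in SF and HF. All 12 arrays were scanned on 1 day, on 5 slides.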

Additional observations from a re-analysis of the deposited data

How the results depend on the processing

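The 6 counts of genes past an adjusted p of 0.05 were 0 in limma and stayed 0 under every alternative that could be fitted, leaving out each bull in turn included (lowest 0, highest 0), except that the ChIP signal alone against 0 gave 3704 genes for H3K4me2 and 3778 for H3K27me3. By construction that value holds each probe's own brightness, which the ratio to input removes. With the bull as a replicate block, 0 genes passed for the mark comparison and 0 for the interaction (260 and 246 at an unadjusted threshold of 0.05, against 41 and 45 without it). The slide as a random block could be fitted only to these 12-array comparisons, where it also gave 0 (194 and 183 unadjusted), since its correlation could not be estimated on 6 arrays. No paired analysis was possible because SF and HF bulls are different animals, for the fertility differences. Of 510 recomputed values of the 5 genes, 65 had the other sign and 18 moved by over 1 SD between bulls. The SF minus HF difference kept its sign in all alternatives run for ELF5 in H3K4me2 (-1.30 to -0.68), for ZAR1 in H3K4me2 (0.47 to 2.05) and H3K27me3 (0.09 to 0.97) and for CDX2 in H3K27me3 (0.48 to 1.07). For ELF5 in H3K4me2, and ZAR1 and CDX2 in H3K27me3, the groups do not overlap. Leaving out bulls, or taking SF1 minus HF5, therefore could not change the sign there and is no check of it. The SF minus HF difference changed sign for PRDM14 in H3K4me2 in 4 of 17 alternatives (-0.68 to 1.16), for CDX2 in H3K4me2 in 3 (-0.37 to 0.45), for GDF9 in H3K27me3 in 3 (-0.46 to 0.50), and in 1 each for ELF5 (-1.12 to 0.55) and PRDM14 (-0.09 to 1.44) in H3K27me3 and GDF9 in H3K4me2 (-1.52 to 0.21). H3K4me2 minus H3K27me3 changed sign for ELF5 against probes of equal GC (0.0277) and ranged from -0.259 to 0.0586 without single bulls, positive without HF2 and without SF5. It changed sign for ZAR1 with the median of probes (-0.23) and ranged from -0.0728, without HF3, to 0.336. For GDF9, at 0.01, it became -0.0696 with loess, -0.0792 with normexp, -0.0617 in the deposited table, -0.0133 with both colours above background, -0.0441 for ChIP alone and -0.17 without SF5 and HF5, and ranged from -0.36 to 0.411 without single bulls, negative without HF3, HF5 or SF4. The difference between marks in the fertility effect became 0.0766 for ELF5 and 0.66 for GDF9 without SF5 and HF5, and for GDF9 ranged from -1.25 to 0.29 without single bulls, positive without HF5. The mean ratio in H3K4me2 changed sign in 9 of 16 alternatives for CDX2, 4 for ELF5, 4 for ZAR1, 1 for PRDM14 and 0 for GDF9. In H3K27me3 it did so in 8 of 16 for ZAR1, 7 for ELF5, 1 for CDX2, 1 for PRDM14 and 0 for GDF9. For PRDM14 in either mark, and CDX2 in H3K27me3, that was the ChIP signal alone. The cause of these changes was not tested. Equal weight per stretch and equal-GC medians were chosen after seeing the data. Spots not above background bound the lowest ratios.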
